A study of Mus musculus with 130 samples.

Results

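Liver transcripts of mice fed a diet with 2% carbonyl iron were compared with those of mice fed chow. Each group held 3 male C57BL/6J mice, an inbred laboratory strain for which the labels name no engineered allele, and each library came from 1 mouse. These 6 libraries were taken by the diet in their labels, out of 15 in a diet study of 5 groups and 130 in the whole series. The 2% diet holds 20000 ppm iron, given as carbonyl iron, a fine powder of pure iron. The other 3 groups of the diet study ate a diet sufficient in iron at 50 ppm, an elevated diet at 500 ppm, or 2% carbonyl iron with cellulose as the fibre. Strain, sex, tissue, RNA purification and library kit are the same in all 15 labels. The iron content and ingredients of the chow, the age of the mice and the time on each diet in this study are not given in the sources used here. Iron and any other difference between chow and the 2% diet therefore cannot be told apart in these 6 mice alone, and the 50 ppm mice are set beside them where this bears on a gene. The mice of the strain panel in the series ate chow before their high-iron diet, which makes chow the starting diet of the larger experiment.

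The liver takes up surplus iron, stores it in ferritin, and secretes hepcidin, a peptide hormone that causes the iron exporter ferroportin to be degraded and so limits iron entry from the gut. Hepcidin is encoded by Hamp, and its transcription in hepatocytes follows BMP6, a ligand made mainly by liver endothelial cells that signals through SMAD proteins. Inflammatory signals act on the same gene through STAT3. Kupffer cells, the resident macrophages of the liver, clear old red cells and recycle their iron, and iron overload of the liver is known for oxidative stress and fibrosis.

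Expected counts summed to 11.01 to 14.18 M per library in the 6 mice, where M stands for 1000000 counts, and levels are given as CPM, the counts of a gene per 1000000 counts of its library, after scaling by TMM factors. Values are listed for mice 1, 2 and 3 of a group, in an order that pairs no mice. The first principal component of the 6 libraries held 58.8% of the variance, with the chow mice at -45.9 to -35.6 and the 2% mice at 36.7 to 47.1. The summed level of 8 hepatocyte markers, among them albumin, was 78465 to 88332 CPM on chow and 85926 to 92399.7 CPM on 2% iron, so hepatocyte RNA was abundant in all 6 libraries, and 3 of the 8 were called lower and 0 higher. Of 13 exocrine pancreas markers, 7 were at 0 counts in the chow mice and 8 in the 2% mice, and the summed level was at most 13.4 CPM. The labels do not say whether mice of a group shared a cage or litter, so p-values measure the spread between these mice only.

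The livers on 2% iron differed from those on chow in a large share of transcripts, with rises in Hamp and Bmp6, interferon-stimulated genes, Kupffer cell genes, hypoxia targets and matrix genes and falls in major urinary proteins, male-biased genes, drug-metabolizing enzymes and bile acid genes. Of 13560 genes tested with the quasi-likelihood test of edgeR, 3087 had an adjusted p under 0.05 and are here called changed, which is 22.8% of those tested. The called genes were 1607 higher on 2% iron, or 11.9%, and 1480 lower, or 10.9%. More than 2-fold changes were commoner upward, with 852 genes higher and 334 lower. The median log2 change of all genes tested was 0.01. Limma on log2(TPM + 1), which uses another scaling, moved that median to 0.10 and called 1945 genes, of which 71.0% were higher against 52.1% in the count test. Under that scaling the genes called lower went from 6 to 5 among NRF2 targets and from 4 to 3 among periportal genes. They went from 3 to 2 among hepatocyte markers and from 2 to 1 in heme synthesis. Larger losses included 11 to 3 among nuclear-encoded respiratory chain genes and 4 to 1 in the urea cycle. Lower calls also went from 3 to 1 in iron storage and sensing and from 3 to 0 in the lysosome list. All 17 major urinary proteins tested kept their call. Gene groups are described by how many of their tested members were called and by their median log2 change, to be read against those shares.

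**Figure D1:**
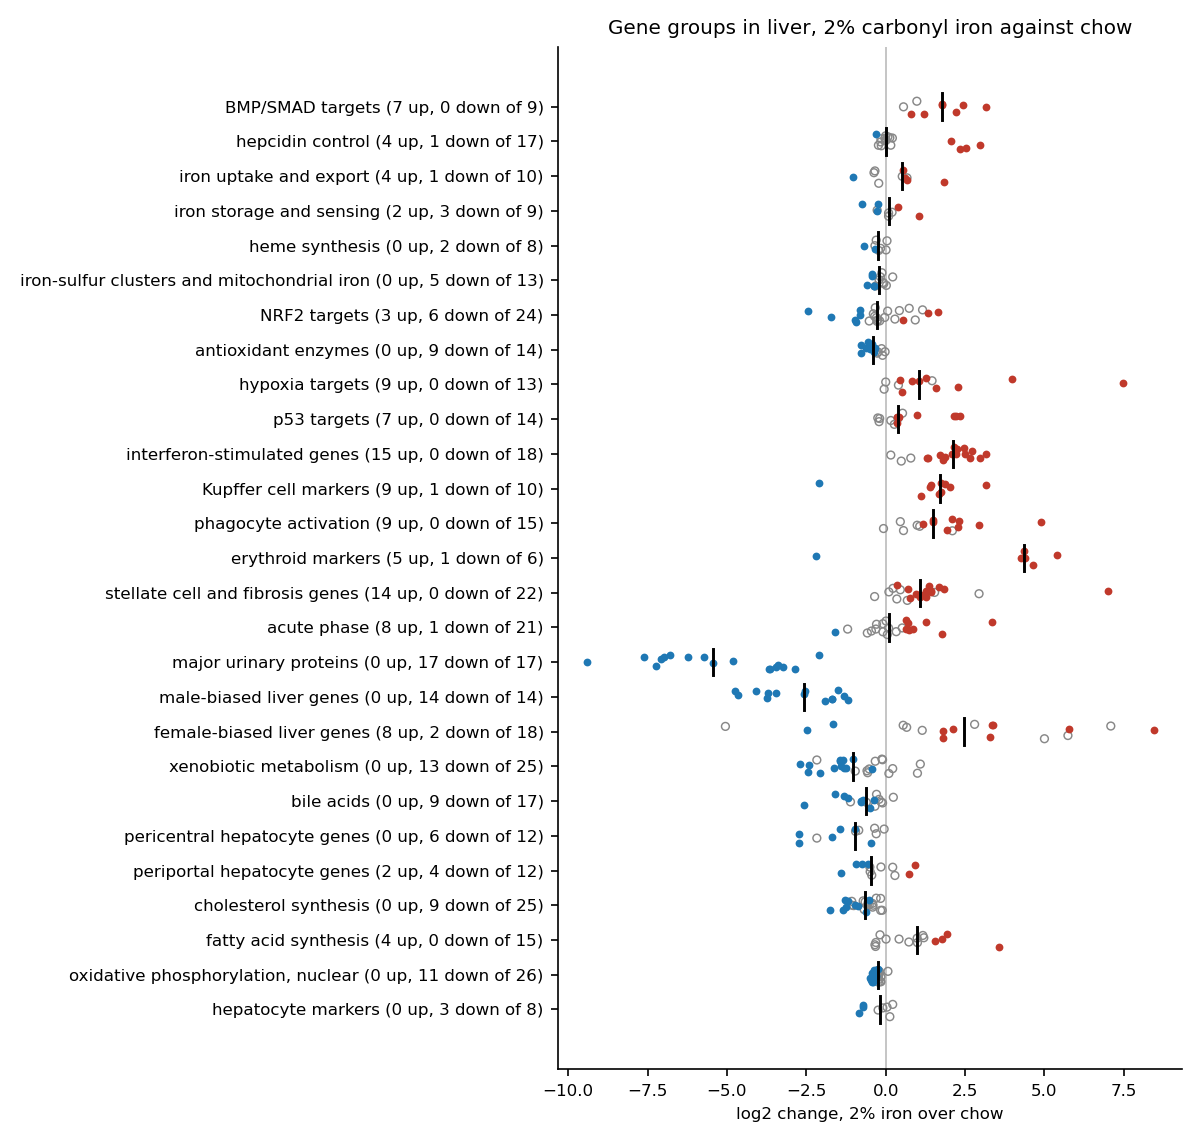
Log2 change on 2% iron against chow (x axis) for the tested members of 27 gene lists (y axis); filled points are genes called higher or lower at an adjusted p under 0.05, open grey points are genes not called, and the black tick is the list's median. Medians lie far to the left for major urinary proteins and male-biased genes, and to the right for erythroid, female-biased, interferon-stimulated and BMP/SMAD genes.

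Hamp, its neighbouring copy Hamp2 and the ligand gene Bmp6 rose on 2% iron. Hamp (ENSMUSG00000050440; chromosome 7, 30942368 to 30944032, minus strand, GRCm38) had 139.8, 96.1 and 194 CPM on chow and 686, 771 and 727 CPM on 2% iron. The lowest 2% mouse was far above the highest chow mouse. The change was 5.07-fold, a log2 change of 2.34 (SE 0.31, edgeR adjusted p 2.54e-04). Hamp2, a neighbouring copy of the gene, had 11.2, 16 and 23.1 CPM on chow and 97.5, 146 and 152 CPM on 2% iron, a log2 change of 2.96 (SE 0.63, adjusted p 0.00466). The 2 genes are near-identical, so reads may be shared between them. Bmp6 (ENSMUSG00000039004; chromosome 13, 38345107 to 38500302, plus strand), the ligand, had 5.26, 4.75 and 5.02 CPM on chow and 25, 30.1 and 31.4 CPM on 2% iron. The 3 chow mice were close together and every 2% mouse was well above them, at 5.75-fold (log2 change 2.52, SE 0.24, adjusted p 4.55e-05).

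The promoters of the hepcidin pair are shown because the 2 genes moved together and because both hepcidin signals are known to act close to the start of Hamp. Each is the 250 bases before the RefSeq start, read 5′ to 3′ on the gene's own strand in GRCm38.p6, on the minus strand at chr7:30944030-30944279 for Hamp and chr7:30924182-30924431 for Hamp2. Capitals mark the BMP response element letters GGCGCC in Hamp with the hexamer aligned to it in Hamp2, and then the STAT3 element letters TTCNNNGAA in both.
Hamp: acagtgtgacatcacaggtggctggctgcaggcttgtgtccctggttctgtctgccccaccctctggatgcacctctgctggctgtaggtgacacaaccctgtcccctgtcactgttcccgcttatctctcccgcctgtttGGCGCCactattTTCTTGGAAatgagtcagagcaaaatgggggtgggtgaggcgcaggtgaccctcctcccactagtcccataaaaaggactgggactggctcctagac
Hamp2: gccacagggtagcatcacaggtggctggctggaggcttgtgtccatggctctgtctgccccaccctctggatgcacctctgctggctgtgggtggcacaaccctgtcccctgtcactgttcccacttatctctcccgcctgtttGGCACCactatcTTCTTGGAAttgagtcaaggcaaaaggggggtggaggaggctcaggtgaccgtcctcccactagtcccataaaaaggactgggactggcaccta
The BMP letters begin 109 bases before the start in Hamp, and the aligned hexamer of Hamp2 begins 106 bases before its start and carries G4A, counted from the first base of the element in Hamp. The STAT3 letters begin 97 bases before the start in Hamp and 94 in Hamp2. Searched on both strands of the 250 bases before the start, GGCGCC was found in 10.8% and TTCNNNGAA in 8.13% of 27025 genes. Among the 13 genes of the hepcidin control list with such a window, 6 held GGCGCC and 2 held TTCNNNGAA, the 2 being Hamp and Hamp2. Among the 6 BMP/SMAD targets with a window, 3 held GGCGCC, namely Id2, Id4 and Smad9. A match is one of letters and shows no binding.

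Targets of BMP and SMAD signalling rose as a group, with 7 of 9 tested members called higher, 0 called lower and a median log2 change of 1.76. Atoh8, a transcription factor induced by BMP signalling, had 14, 14.1 and 16.7 CPM on chow and 62.7, 75.3 and 71.1 CPM on 2% iron, a rise of 2.22 (SE 0.15, adjusted p 6.57e-06). Its groups were far apart and tight. Smad7, which feeds back to block SMAD signalling, had 11, 9.88 and 27.1 CPM on chow and 46.1, 61.3 and 57 CPM on 2% iron, with chow mouse 3 the nearest to the loaded mice. Id4 rose by 3.15, Smad9 by 1.78, Bambi by 1.20 and Smad6 by 0.80 on the log2 scale. Id1, an inhibitor of differentiation and a direct SMAD target, had 3.85, 0.932 and 12.6 CPM on chow and 31.9, 35.5 and 31.8 CPM on 2% iron, a log2 change of 2.45 (adjusted p 0.0131). The call of Id1 was lost without chow mouse 1, at an adjusted p of 0.0548. Id2 and Id3 did not pass, at 0.56 (adjusted p 0.263) and 0.98 (adjusted p 0.153), and in both chow mouse 3 overlapped the 2% mice. Of the 17 genes on the hepcidin control list, which holds receptors, co-receptors and regulators beside Hamp, 4 were called higher and 1 lower. Fgl1, a secreted liver protein reported to suppress hepcidin, rose by 2.07 (SE 0.46, adjusted p 0.00542), from 208, 116 and 107 to 815, 545 and 445 CPM.

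**Figure D2:**
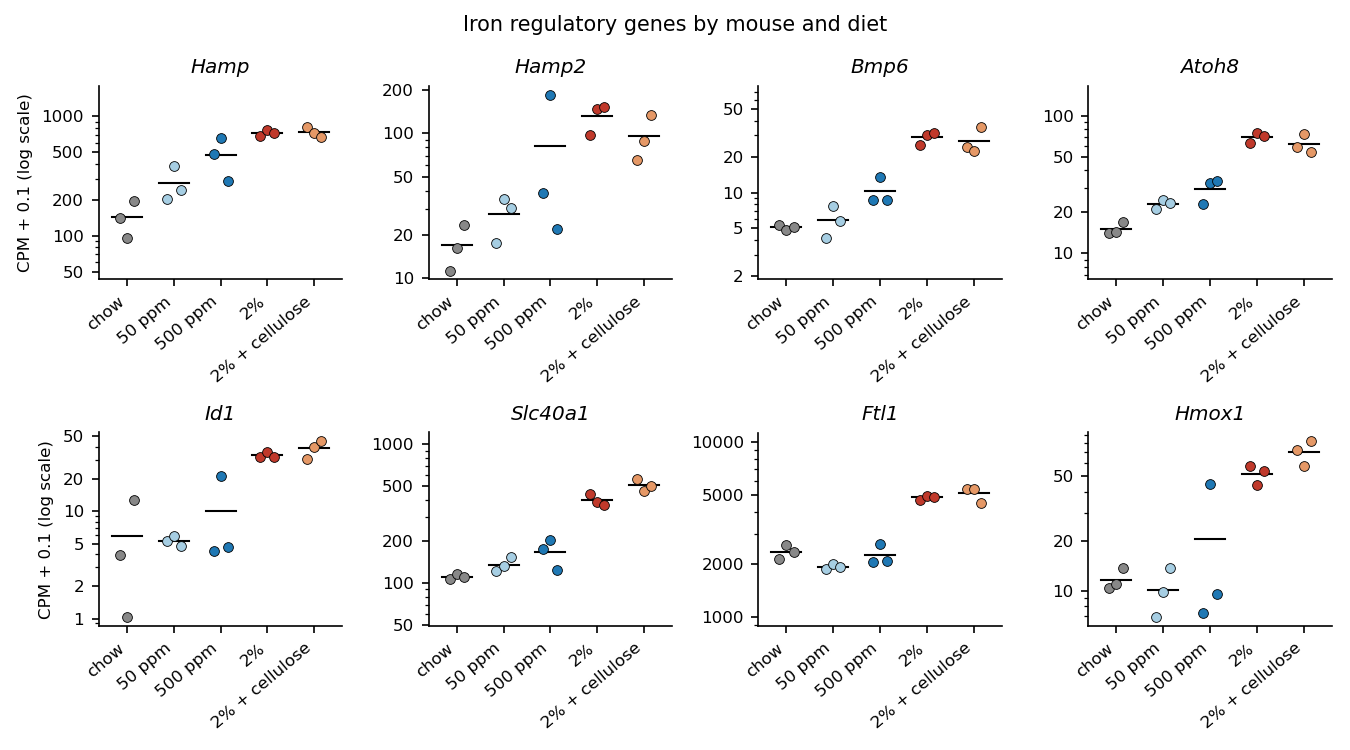
CPM + 0.1 on a log axis (y) for single mice (points) and group means (bars) of 8 iron genes in the 5 diet groups (x). Each gene is higher in all 3 mice on 2% iron than in all 3 on chow.

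The genes of the exporter ferroportin and of the ferritin light chain rose, while those of an iron reductase and an iron sensor fell. Slc40a1, which encodes ferroportin, had 107, 115 and 110.3 CPM on chow and 437, 384 and 363 CPM on 2% iron, a 3.56-fold rise (log2 change 1.83, SE 0.16, adjusted p 2.14e-05). The groups did not come near each other. Ferroportin is made by both hepatocytes and macrophages, and in bulk tissue a change in the number of cells of a type and a change in RNA per cell cannot be told apart. Cp, the plasma ferroxidase ceruloplasmin, rose by 0.66 (SE 0.10, adjusted p 5.57e-04). Steap3, a reductase that readies iron for leaving the endosome, had 30.2, 29.7 and 28.1 CPM on chow and 17.7, 12.4 and 13 CPM on 2% iron and fell by 1.03 (SE 0.14, adjusted p 2.60e-04). In all, 4 of 10 uptake and export genes were called higher and 1 lower, and without chow mouse 2 these were 2 and 1.

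The light chain of ferritin rose and the heavy chain did not pass the test. Ftl1 had 2129, 2566 and 2340.0 CPM on chow and 4660.1, 4952 and 4868 CPM on 2% iron, a rise of 1.04 (SE 0.12, adjusted p 1.44e-04), with the reservation that ferritin pseudogenes may take some of its reads. Fth1 had 1011, 1158 and 985 CPM on chow and 939.7, 828 and 852 CPM on 2% iron, a log2 change of -0.27 (adjusted p 0.104). Aco1, the iron regulatory protein that doubles as cytosolic aconitase, had 264, 285 and 248 CPM on chow and 155, 166 and 154 CPM on 2% iron and fell by 0.74 (SE 0.09, adjusted p 1.46e-04). Fbxl5, which targets the other iron regulatory protein for degradation, rose by 0.39 (SE 0.10, adjusted p 0.00973). The transferrin receptor gene Tfrc, whose transcript is stabilized when iron is low, had 35.6, 24.8 and 28 CPM on chow and 21.5, 19.2 and 28.9 CPM on 2% iron, with groups that overlapped (log2 change -0.34, adjusted p 0.472). Its direction turned under TPM scaling, to 0.11. Of the 9 storage and sensing genes 2 were called higher and 3 lower, and 1 was called lower in the compared groups alone or under TPM scaling.

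Heme genes moved in both directions. Hmox1, heme oxygenase, which breaks heme down and releases its iron, had 10.2, 10.8 and 13.7 CPM on chow and 57.8, 44 and 53.5 CPM on 2% iron, a 4.44-fold rise (log2 change 2.15, SE 0.51, adjusted p 0.0082). All 3 loaded mice were above every chow mouse. Of the 10 heme scavenging and breakdown genes 3 were called higher and 1 lower, and without chow mouse 1 or 3 or 2% mouse 1 these were 1 and 1, and without chow mouse 2 they were 2 and 0. Alad, the second enzyme of heme synthesis, fell by 0.70 (SE 0.11, adjusted p 5.69e-04). Alas2, the synthase of the erythroid lineage, had 93.4, 108 and 93.1 CPM on chow and 17.3, 28.3 and 18.7 CPM on 2% iron and fell by 2.20 (SE 0.25, adjusted p 1.03e-04). Of the 8 heme synthesis genes other than Alas2, 2 were called lower and 0 higher, and 1 of them without any 1 of chow mice 1 and 2 and 2% mice 1 and 3.

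Antioxidant enzymes were lower on 2% iron, and NRF2 targets moved in both directions. Of 14 antioxidant enzymes 9 were called lower and 0 higher, with a median of -0.41, and 5 were called lower with limma on log2(TPM + 1). Cat, catalase, a heme enzyme, had 2983, 3391 and 2998 CPM on chow and 1765, 1939 and 1701 CPM on 2% iron, a fall of 0.79 (SE 0.13, adjusted p 7.84e-04). Gpx1, glutathione peroxidase, fell by 0.78 (SE 0.14) and the mitochondrial superoxide dismutase gene Sod2 by 0.56 (SE 0.09), and both calls held under TPM scaling. Among 24 targets of NRF2, the transcription factor of the oxidative stress response, 3 were called higher and 6 lower, with a median of -0.26. The 3 became 1 without chow mouse 1, 2% mouse 2 or 2% mouse 3. Pgd, a pentose phosphate enzyme that makes NADPH, had 29.8, 40.9 and 36.9 CPM on chow and 59.2, 98.1 and 116 CPM on 2% iron and rose by 1.34 (SE 0.28, adjusted p 0.00384). Nqo1, a quinone reductase and widely used NRF2 target, had 4.04, 8.39 and 4.58 CPM on chow and 10.2, 9.33 and 8.70 CPM on 2% iron, without passing (log2 change 0.74, adjusted p 0.0775). The 6 that fell included the glutathione transferases Gsta2, by 2.45 (SE 0.45), and Gstp1, by 1.72 (SE 0.32), whose reads can be shared with close paralogs.

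Genes of iron-sulfur clusters and of the respiratory chain, which uses them, showed small falls. Of 13 genes for iron-sulfur clusters and mitochondrial iron 5 were called lower and 0 higher, with a median of -0.21, while 0 were called under TPM scaling and 3 without chow mouse 2. Of 26 nuclear-encoded respiratory chain genes 11 were called lower and 0 higher, with a median of -0.24, against 3 under TPM scaling and 7 without chow mouse 2. Sdha, the flavoprotein of complex II, fell by 0.40 (SE 0.10, adjusted p 0.00967), and its call held under both scalings. Of 13 respiratory chain genes encoded in the mitochondrial genome 0 were called lower and 2 higher, and those 2 calls were lost without any 1 of the 6 mice other than 2% mouse 2.

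Hypoxia targets rose, with 9 of 13 called higher, 0 lower and a median of 1.05. Epo, erythropoietin, had 0 counts in all 3 chow mice and 2.90, 0.533 and 1.88 CPM on 2% iron, from 63 counts, at least 21.1-fold higher against a floor of 3 counts over the chow group. One annotated transcript of Epo reaches over Gnb2, Gigyf1 and Pop7, so some of its reads may come from those genes. Egln3, an oxygen-sensing prolyl hydroxylase, rose from 19.3, 14.5 and 16.3 to 61.8, 44 and 43.8 CPM (log2 change 1.58, SE 0.27, adjusted p 0.00115). Vegfa, the vascular growth factor, rose by 0.82 (SE 0.19), Ldha, lactate dehydrogenase, by 1.26 (SE 0.25) and the vasodilator gene Adm by 2.29 (SE 0.37). Ankrd37 rose by 3.98 from levels under 1 CPM, and Pdk1, which slows pyruvate oxidation, by 0.50. Of the hypoxia factor genes, Epas1 was among the 9 called higher. Hif1a did not pass at -0.05 (adjusted p 0.776), with its sign turning under TPM scaling.

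Interferon-stimulated genes rose together, with 15 of 18 called higher, 0 lower and a median log2 change of 2.12. Isg15 (ENSMUSG00000035692; chromosome 4, 156199424 to 156200818, minus strand), a ubiquitin-like protein, had 3.20, 3.82 and 5.02 CPM on chow and 15, 22.4 and 19.3 CPM on 2% iron. Its change was 2.22 (SE 0.29, adjusted p 2.50e-04). The 2 groups were clearly separate. Irf7, the transcription factor that amplifies the type I interferon response, had 21.8, 23.3 and 39.3 CPM on chow and 129, 145 and 131 CPM on 2% iron (log2 change 2.26, SE 0.33, adjusted p 4.42e-04). Oasl2 had 3.95, 3.63 and 6.54 CPM on chow and 24.6, 37.1 and 32.7 CPM on 2% iron (log2 change 2.72, SE 0.29, adjusted p 7.97e-05), and reads of this family can be shared among its members. Rsad2, the antiviral enzyme viperin, had 17.6, 12.6 and 23.6 CPM on chow and 130.1, 129 and 77.2 CPM on 2% iron, a rise of 2.64 (SE 0.34). In each of these 3 genes chow mouse 3 was the highest of its group and still below every loaded mouse. Ifit1, Ifit2 and Ifit3, which bind viral RNA, rose by 2.16, 2.50 and 1.71, Usp18, a brake on the receptor, by 2.48, Ifi44 by 3.17 and Gbp3 by 1.80. Among the listed genes that did not pass were Gbp2 at 0.79 (adjusted p 0.14) and the chemokine gene Cxcl10 at 0.16 (adjusted p 0.793), whose sign turned without chow mouse 1 or 2. Off the list, Oasl1, Slfn8 and Ifi203 were among the 10 rises with the smallest p, at 2.52, 2.32 and 1.50. Over all alternatives 14 to 17 list genes were called higher.

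Promoters of 3 of these genes are shown because the group moved together and the interferon-stimulated response element is known from such genes. The letters taken for its core, GAAANNGAA, were added to the search after the expression values were seen. Each window is the 250 bases before the RefSeq start in GRCm38.p6, read on the gene's strand, at chr4:156200819-156201068 (minus) for Isg15, chr19:34640639-34640888 (plus) for Ifit1 and chr12:26456453-26456702 (minus) for Rsad2. Capitals mark the core or its reverse complement.
Isg15: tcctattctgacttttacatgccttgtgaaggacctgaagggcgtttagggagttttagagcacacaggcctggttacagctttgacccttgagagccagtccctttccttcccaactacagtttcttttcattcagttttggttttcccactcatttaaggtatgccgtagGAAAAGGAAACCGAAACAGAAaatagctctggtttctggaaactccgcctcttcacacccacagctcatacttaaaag
Ifit1: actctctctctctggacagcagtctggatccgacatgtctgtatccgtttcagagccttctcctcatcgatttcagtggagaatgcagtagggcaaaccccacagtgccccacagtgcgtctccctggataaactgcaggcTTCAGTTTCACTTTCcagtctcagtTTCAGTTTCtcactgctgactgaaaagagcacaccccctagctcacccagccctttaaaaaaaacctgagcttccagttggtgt
Rsad2: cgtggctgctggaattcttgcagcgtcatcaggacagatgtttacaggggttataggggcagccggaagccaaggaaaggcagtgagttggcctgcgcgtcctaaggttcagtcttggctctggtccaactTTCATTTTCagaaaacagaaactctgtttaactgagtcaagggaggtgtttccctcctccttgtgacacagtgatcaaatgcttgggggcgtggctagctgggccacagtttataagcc
In Isg15, 3 overlapping copies begin 78, 72 and 66 bases before the start. In Ifit1 the reverse complement begins 109, 103 and 84 bases before the start, and in Rsad2 it begins 119 bases before it. The core was found on either strand in 8 of the 12 list genes with a window and in 8.18% of 27025 genes.

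Kupffer cell genes rose as a group. Of 10 markers 9 were called higher and 1 lower, with a median of 1.70. Clec4f, a lectin used to identify Kupffer cells, had 40.2, 45 and 48.6 CPM on chow and 145, 154 and 144 CPM on 2% iron, a rise of 1.73 (SE 0.21, adjusted p 1.66e-04). Marco, a scavenger receptor, had 3.57, 3.54 and 4.07 CPM on chow and 37.3, 37.6 and 25.3 CPM on 2% iron (log2 change 3.15, SE 0.62, adjusted p 0.00288). In both genes the groups were well apart. Cd5l rose by 1.88, Vsig4 by 1.67, Timd4 by 1.74, Folr2 by 2.02, Adgre1, which encodes F4/80, by 1.38 and the growth factor receptor gene Csf1r by 1.43. The exception was C6, a complement gene that hepatocytes also make, with 325, 287 and 289 CPM on chow and 72.5, 78.1 and 59.6 CPM on 2% iron. The summed level of the other 9 markers was 156 to 193 CPM on chow and 556 to 586 CPM on 2% iron. With C6 included, the sum was 470 to 482 CPM on chow and 616 to 658 CPM on 2% iron. Genes of activated phagocytes were called higher in 9 of 15, with 0 lower and a median of 1.49. Cd68, a lysosomal protein of macrophages, rose from 2.91, 4.29 and 5.96 to 18.1, 16.6 and 16.6 CPM (log2 change 1.94, SE 0.27, adjusted p 3.35e-04). Clec7a, Lgals3, Itgax and Cd9 rose by 2.09, 2.30, 2.28 and 1.49.

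Markers of other blood cells did not pass the test. Of 7 tested monocyte and neutrophil markers 0 were called by edgeR, with 4 at an unadjusted p under 0.05, and 2 by DESeq2, and their summed level was 2.91 to 5.60 CPM on chow and 9.42 to 18.6 CPM on 2% iron. All 3 loaded mice were above every chow mouse in that sum, and 3 of the listed markers were at 0 counts on chow. Ly6c2, of inflammatory monocytes, had the smallest adjusted p, 0.0582, at a log2 change of 1.69. Of 5 tested lymphocyte markers 0 were called by edgeR, with 1 at an unadjusted p under 0.05, and 0 by DESeq2, with sums of 4.94 to 6.96 CPM and 5.46 to 10.4 CPM. The chemokine genes Ccl6 and Ccl24 rose by 2.48 (SE 0.38, adjusted p 5.72e-04) and 2.15 (SE 0.31, adjusted p 4.32e-04). In all, 3 of 11 chemokine genes were called higher and 0 lower. Of 7 genes of MHC class II and 4 of cholangiocytes 0 were called by edgeR or DESeq2, and 0 had an unadjusted p under 0.05. The MHC class II sum was 99.5, 112 and 211 CPM in the chow mice. Without chow mouse 3 edgeR called 2 of the 7 higher, and their median moved from -0.21 to 0.28. For cholangiocytes edgeR called 1 gene lower without a filter, or without chow mouse 1, 2% mouse 2 or 2% mouse 3. Of 14 sinusoidal endothelial markers 2 were called higher and 1 lower, with a sum of 434 to 487 CPM on chow and 576 to 592 CPM on 2% iron. Cdh5, the endothelial cadherin, rose by 0.99 (SE 0.15, adjusted p 5.36e-04). The part of these shifts in marker levels in the interferon, ferroportin and matrix results was not tested.

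**Figure D3:**
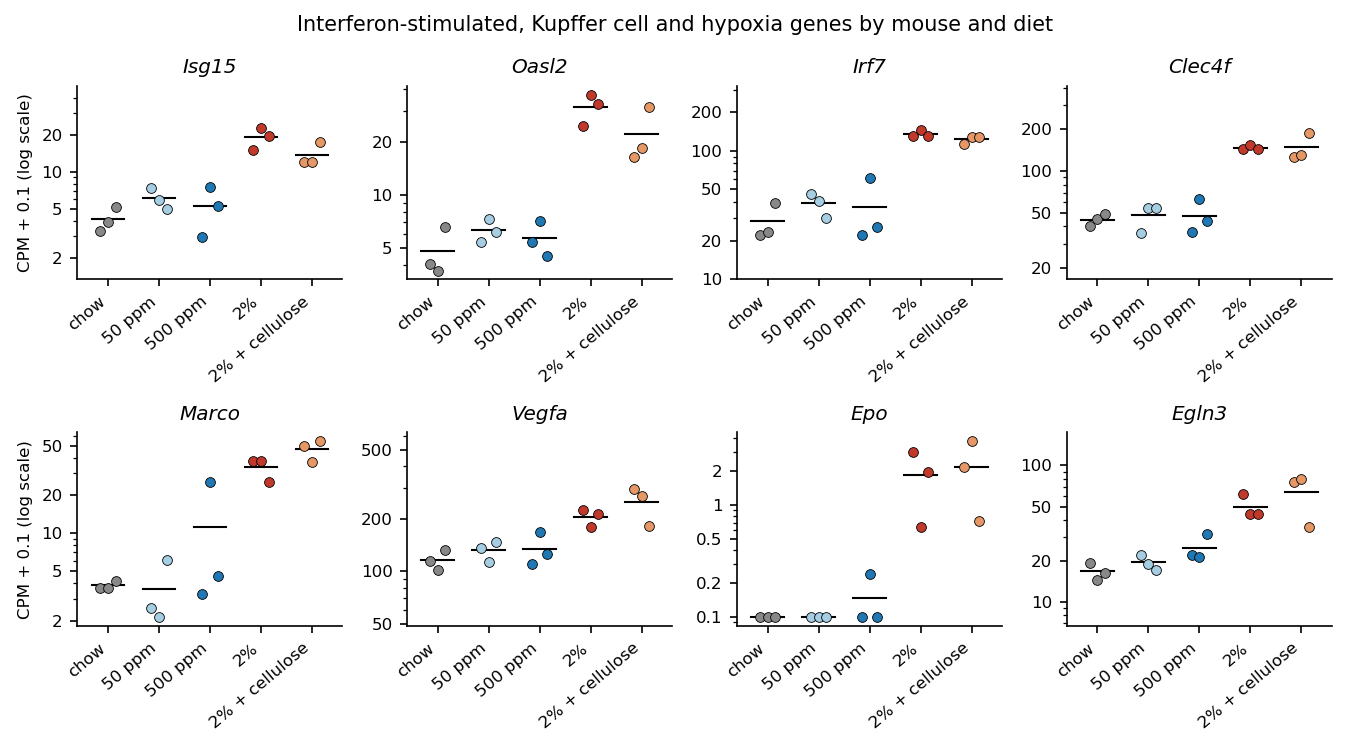
CPM + 0.1 on a log axis (y) for single mice (points) and group means (bars) of 3 interferon-stimulated genes, 2 Kupffer cell genes and 3 hypoxia targets in the 5 diet groups (x). Each gene is higher in all 3 mice on 2% iron than in all 3 on chow, and Epo had 0 counts on chow.

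Globin transcripts were much higher on 2% iron, while the erythroid heme synthase Alas2 was lower, so that 5 of 6 tested erythroid markers were called higher and 1 lower. Hba-a1, alpha globin, had 2.91, 9.60 and 5.38 CPM on chow and 151, 179 and 114 CPM on 2% iron (log2 change 4.64, SE 0.85, adjusted p 0.00177). Hba-a2, Hbb-bs and Hbb-bt rose by 4.38, 4.36 and 4.25, and reads can be shared within the alpha and the beta pair. Every loaded mouse was far above every chow mouse for each of the 4 globins. Slc4a1, the anion exchanger of red cells, had 3 counts over the chow group and 141 over the 2% group, a ratio of 47.1 with an exact 95% counting interval of 15.8 to 231. That interval rests on summed counts and leaves out the spread between mice. The summed level of the erythroid markers other than Alas2 was 8.46 to 29.5 CPM on chow and 304 to 450.3 CPM on 2% iron. How much blood each piece of liver held was not measured, so its part in the globin result was not tested.

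Genes of stellate cells and extracellular matrix rose, with 14 of 22 called higher, 0 lower and a median of 1.09. Col6a1, a collagen VI chain, had 5.55, 5.59 and 6.18 CPM on chow and 19.4, 17.2 and 18.6 CPM on 2% iron (log2 change 1.67, SE 0.22, adjusted p 2.45e-04). Its 6 values were clearly separate by diet. Col4a1, of the basement membrane, rose by 0.94 (SE 0.16), the crosslinking enzyme gene Loxl2 by 1.44 (SE 0.23), the growth factor gene Tgfb1 by 1.07 (SE 0.25) and Pdgfrb, a receptor of stellate cells, by 0.75 (SE 0.14). Fibrillar collagen was less even among mice, since Col1a1 had 2.82, 4.85 and 5.38 CPM on chow and 13.3, 6.40 and 27.8 CPM on 2% iron (log2 change 1.85, adjusted p 0.014). Its call was lost without chow mouse 1 (0.0581) or 2% mouse 3 (0.0864). On the 50 ppm diet Col1a1 averaged 15.6 ± 4.65 CPM (SD, n = 3), within the range of the 2% mice. The summed level of the listed genes was 317 to 347 CPM on chow, 396 to 564 CPM on 50 ppm and 537 to 978 CPM on 2% iron, so that chow overlapped neither group while the other 2 overlapped each other. Acta2, the smooth muscle actin of activated stellate cells, did not pass at 1.54 (adjusted p 0.122), with 7.71, 0.978 and 1.88 CPM in the 2% mice, of which mouse 1 stood above the rest. Mmp14, a membrane protease, rose by 1.26 (SE 0.14, adjusted p 1.01e-04).

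Other lists had smaller or mixed counts. Of 12 ferroptosis genes 2 were called higher and 2 lower, with a median of -0.30. Gpx4, which removes lipid peroxides and holds that form of cell death back, fell by 0.51 (SE 0.12, adjusted p 0.00719), as one of those 2. Gch1, which makes a lipid-protecting cofactor, had a log2 change of -0.38 (SE 0.08, adjusted p 0.00514), and both calls were lost under TPM scaling. Of 9 genes of metallothioneins and zinc transport 0 were called higher and 1 lower, the zinc importer gene Slc39a4 at -1.24 (SE 0.24, adjusted p 0.00261). Chow was also above 50 ppm in Slc39a4, by 1.44 (adjusted p 0.0239). That call was kept in 8 of 15 alternatives, with adjusted p-values of up to 0.144. Mt1 did not pass at 0.97 (adjusted p 0.434). Of 14 genes of the integrated stress response 2 were called higher and 1 lower, and Sesn2, which restrains growth signalling under stress, rose from 6.39, 9.88 and 9.09 to 16.1, 15.2 and 14.2 CPM (log2 change 0.84, adjusted p 0.00277). The calls of Psat1, higher, and Asns, lower, were kept in 8 and 9 of 15 alternatives. Their adjusted p-values reached 0.117 and 0.154. Of 15 proliferation genes 3 were called higher and 0 lower, 1 without chow mouse 1 or 2% mouse 3 and 2 without any 1 of the rest.

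Several p53 targets and part of the acute phase list rose. Of 14 p53 targets 7 were called higher and 0 lower, with a median of 0.38, and 4 without chow mouse 2. Bax, which promotes apoptosis, had 7.24, 8.95 and 9.23 CPM on chow and 16.7, 17.1 and 17.2 CPM on 2% iron (log2 change 1.0, SE 0.17, adjusted p 0.0012). Phlda3 rose by 2.34 (SE 0.46) and Eda2r by 2.22 (SE 0.45), both from under 1 CPM. Of 21 acute phase genes 8 were called higher and 1 lower, but the 8 became 3 without chow mouse 2, 2 without 2% mouse 1 and 4 without 2% mouse 2. Lcn2, which binds bacterial iron carriers, had 7.05, 5.50 and 5.53 CPM on chow and 105, 23.4 and 55.3 CPM on 2% iron (log2 change 3.35, SE 0.74, adjusted p 0.00543), and its loaded mice were spread widely above the chow mice. Apcs, serum amyloid P, rose by 1.77 (SE 0.40), whereas Saa4 fell by 1.60 (SE 0.18). Saa1, the most responsive serum amyloid in acute inflammation, did not rise, with 66.6, 20.8 and 20.1 CPM on chow and 18.7, 10.4 and 17.2 CPM on 2% iron (adjusted p 0.167).

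Major urinary proteins, pheromone carriers made in bulk by the male mouse liver, fell in every member tested. All 17 were called lower, 16 of them without 2% mouse 2 or 2% mouse 3, with a median log2 change of -5.44. Mup7 (ENSMUSG00000073842; chromosome 4, 60066469 to 60070475, minus strand) had 9517, 10209.7 and 5621 CPM on chow and 10.9, 10.7 and 15.4 CPM on 2% iron. Every loaded mouse was far below every chow mouse. Its group means differed 683-fold and its log2 change was -9.42 (SE 1.10, adjusted p 1.29e-04). Mup20, the male pheromone darcin, had 3527, 4498 and 4788 CPM on chow and 327, 720.1 and 733 CPM on 2% iron and fell by 2.85 (SE 0.39, adjusted p 2.71e-04). The family is a cluster of near-identical genes on chromosome 4, so values of single members are uncertain and the 17 are not independent. With a floor of 10 counts in every library 8 members were tested, and all 8 were called lower.

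The male-biased genes of the liver fell with them, and part of the female-biased genes rose. All 14 tested male-biased genes, a list with no Mup gene, were called lower, with a median of -2.56. Over the alternatives 10 to 14 were called, the 10 being all that passed a floor of 10 counts in every library. The summed level of the 15 listed genes was 10776 to 16527 CPM on chow and 1211 to 1681 CPM on 2% iron. On 50 ppm it was 5246, 5291 and 12067 CPM, listed by level, so 1 mouse overlapped chow. Between chow and 50 ppm edgeR called 0 of the 14, with 2 at an unadjusted p under 0.05. Cyp4a12a, a fatty acid hydroxylase of the male liver, had 427, 411 and 363 CPM on chow and 17.7, 24.3 and 28.2 CPM on 2% iron (log2 change -4.10, SE 0.42, adjusted p 6.67e-05). Serpina1e, a serine protease inhibitor, had 11601, 8681 and 7038 CPM on chow and 379, 376 and 253 CPM on 2% iron (log2 change -4.76, SE 0.54, adjusted p 1.03e-04). The groups were more than an order of magnitude apart in both. Elovl3, a fatty acid elongase, fell by 3.73, Hsd3b5, a steroid dehydrogenase, by 2.53, Cyp7b1, an oxysterol hydroxylase, by 2.59 and Susd4 by 3.71. Of 18 female-biased genes 8 were called higher and 2 lower, with a median of 2.46, and the 8 became 4 without chow mouse 2 and 5 without chow mouse 1, chow mouse 3 or 2% mouse 1.

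Cyp2b9 (ENSMUSG00000040660; chromosome 7, 26173411 to 26210661, plus strand), a cytochrome of the female liver, had 0.0940, 0.932 and 0.218 CPM on chow and 190.4, 105 and 132 CPM on 2% iron. It was nearly silent in the chow mice, and its log2 change was 8.44 (SE 1.88, adjusted p 0.00578). Cyp17a1, a steroid hydroxylase, had 9.12, 16.8 and 11.7 CPM on chow and 201, 106 and 75.5 CPM on 2% iron (log2 change 3.35, SE 0.67, adjusted p 0.00314), and averaged 50.4 ± 31.2 CPM (SD, n = 3) on 50 ppm. Cux2, a female-biased repressor, had 1.22, 0.932 and 0.872 CPM on chow and 12, 6.22 and 13.2 CPM on 2% iron (adjusted p 0.032). Cux2 lost its call when any 1 of the chow mice, or 2% mouse 1 or 3, was left out, at adjusted p-values of up to 0.0941, and so did Cyp2a4 without any 1 of the chow mice or 2% mouse 1, at up to 0.0779. Against the list's direction, Cyp3a16 fell by 2.48 (SE 0.53), and the Cyp2 and Cyp3a genes share reads among close paralogs. The sex difference of these genes is known to follow growth hormone pulses, and Ghr, the growth hormone receptor, had 439, 536 and 522 CPM on chow and 251, 289 and 311 CPM on 2% iron, a fall of 0.82 (SE 0.13, adjusted p 7.27e-04). Igf1, a growth hormone target, did not pass at -0.09 (adjusted p 0.747). Of the 12 listed genes of the growth hormone axis 2 were called higher and 3 lower, with a median of -0.00. Igfbp3, the main carrier of circulating IGF, rose by 1.42 (SE 0.31, adjusted p 0.00552) beside Cux2, while Igfals, which binds circulating IGF, fell by 1.05 (SE 0.24) and Igfbp2 by 1.66 (SE 0.24).

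**Figure D4:**
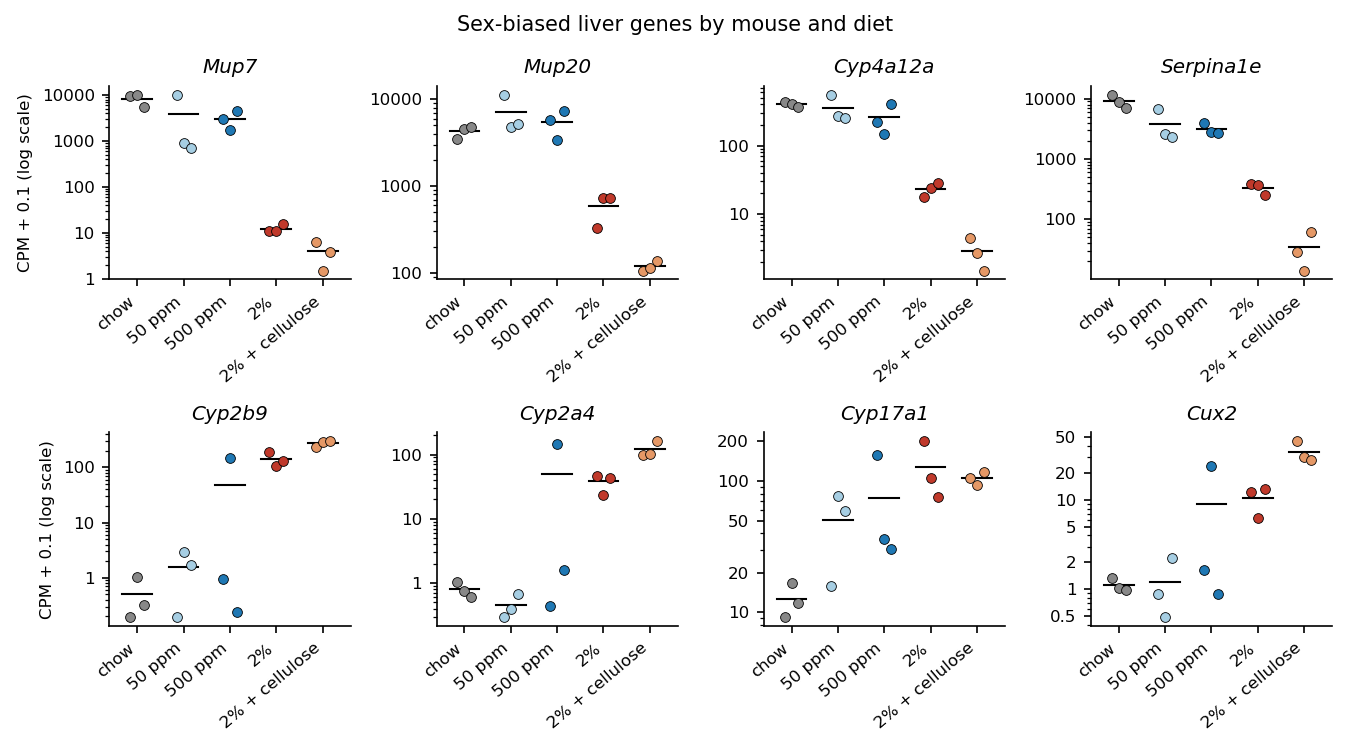
CPM + 0.1 on a log axis (y) for single mice (points) and group means (bars) of 4 male-linked genes (Mup7, Mup20, Cyp4a12a, Serpina1e) and 4 female-biased genes (Cyp2b9, Cyp2a4, Cyp17a1, Cux2) in the 5 diet groups (x). The first 4 are lower and the others higher in all 3 mice on 2% iron than in all 3 on chow.

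Apoa4 and Atoh8 had the smallest adjusted p of all rising genes. Apoa4 (ENSMUSG00000032080; chromosome 9, 46240696 to 46243459, plus strand), an apolipoprotein of triglyceride-rich particles, had 120.4, 129 and 212 CPM on chow and 7831, 4882 and 4199 CPM on 2% iron. Its level rose 36.7-fold (log2 change 5.20, SE 0.34, adjusted p 6.57e-06). It averaged 1446 ± 326 CPM (SD, n = 3) on 50 ppm, between the 2 groups. Apoc3, an inhibitor of lipoprotein lipase, rose by 1.08 (SE 0.16, adjusted p 5.14e-04). Acaca, which makes the malonyl-CoA for fatty acid synthesis, had 142, 139 and 162 CPM on chow and 284, 599 and 793 CPM on 2% iron, a rise of 1.92 (SE 0.41, adjusted p 0.00462). Pnpla3, a lipid droplet protein, rose from 0.564, 0.746 and 0.945 to 3.98, 10.8 and 12.9 CPM. In both genes 2% mouse 1 was the lowest of the loaded mice. Of 15 fatty acid synthesis genes 4 were called higher and 0 lower, and 7 were called without 2% mouse 1 but 2 without chow mouse 1, chow mouse 2 or 2% mouse 3. Their summed level was 8249 to 15803 CPM on chow and 9262 to 33912 CPM on 2% iron. It was 9582 to 27676 CPM on 50 ppm and 17161 to 34482 CPM on 500 ppm. The 2% range thus overlapped that of each other diet. Between chow and 50 ppm edgeR called 0 of the 15, with 2 at an unadjusted p under 0.05. Fatty acid oxidation had 4 of 23 genes called lower and 0 higher, 2 without chow mouse 1 or 2% mouse 3 and 7 without 2% mouse 1.

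Part of the genes of sterol and bile acid synthesis fell. Of 25 cholesterol synthesis genes 9 were called lower and 0 higher, with a median of -0.65, and the 9 became 3 without chow mouse 2, 4 without chow mouse 3 or 2% mouse 1, and 5 under TPM scaling. Msmo1, a sterol oxidase, had 167, 325 and 276 CPM on chow and 23.1, 87.5 and 115 CPM on 2% iron (log2 change -1.77, SE 0.42, adjusted p 0.00852), and here too 2% mouse 1 was the lowest. Mvk, mevalonate kinase, fell by 1.34 (SE 0.27) and Tm7sf2, a sterol reductase, by 1.19 (SE 0.28). Of 17 bile acid genes 9 were called lower and 0 higher, with a median of -0.61, and 7 to 11 over all alternatives. Cyp7a1, the rate-limiting enzyme of bile acid synthesis, had 397, 408 and 175 CPM on chow and 102, 91 and 134 CPM on 2% iron (log2 change -1.59, SE 0.39, adjusted p 0.0105). Cyp8b1, which sets the share of cholic acid, had 758, 805 and 633 CPM on chow and 328, 329 and 308 CPM on 2% iron, a fall of 1.19 (SE 0.20, adjusted p 0.00102). The conjugating enzyme genes Baat and Slc27a5 fell by 0.77 (SE 0.10) and 0.71 (SE 0.09), and the uptake carrier gene Slco1b2 by 0.77 (SE 0.18).

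Drug-metabolizing enzymes and pericentral genes of the liver lobule fell, while its periportal genes moved in both directions. Of 25 xenobiotic genes 13 were called lower and 0 higher, with a median of -1.02. Cyp3a11, a broad drug-metabolizing cytochrome, had 6502, 8770.0 and 3949 CPM on chow and 1566, 1581 and 1446 CPM on 2% iron, a fall of 2.06 (SE 0.32, adjusted p 6.12e-04). Ces2a, a carboxylesterase, had 378, 421 and 289.7 CPM on chow and 68.9, 74.6 and 59.9 CPM on 2% iron, a fall of 2.42 (SE 0.19, adjusted p 1.41e-05). All 3 loaded mice were below every chow mouse in both. Nr1i3, the nuclear receptor CAR, which drives many of these genes, fell by 1.02 (SE 0.22, adjusted p 0.00462). Of 12 pericentral genes 6 were called lower and 0 higher, with a median of -0.96. Cyp2e1, which oxidizes ethanol, had 5921, 6048 and 5834 CPM on chow and 2957, 3223 and 2843 CPM on 2% iron, a fall of 0.98 (SE 0.13, adjusted p 2.67e-04). Glul, glutamine synthetase, which marks the innermost pericentral cells, did not pass at -0.30 (adjusted p 0.39), although Oat, Slc1a2 and Rhbg from the same cells fell by 1.43, 1.70 and 2.73. Of 12 periportal genes 4 were called lower and 2 higher, with Cyp2f2 and Gls2 lower by 1.41 and 0.93 and Cdh1 and Hsd17b13 higher by 0.92 and 0.72.

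Because chow and the 2% diet can differ in more than iron, chow was also compared with the 50 ppm diet, which tests directly how far the effect of 2% iron depends on which of the 2 control diets it is taken from. Of 13560 genes 53 were called, or 0.391%, with 36 higher and 17 lower on chow, and 1408 had an unadjusted p under 0.05. The count was 4 without 50 ppm mouse 3, 6 without 50 ppm mouse 2, 7 without chow mouse 2, 15 without chow mouse 1, and 144 with DESeq2. Of the 84 tested genes of the hepcidin control, BMP/SMAD, interferon-stimulated, Kupffer cell, hypoxia and Mup lists 0 were called by edgeR, with 9 at an unadjusted p under 0.05, and DESeq2 called 1, Atoh8. Summed levels of hypoxia targets were 1140 to 1365 CPM on chow, 1487 to 1528 CPM on 50 ppm and 1937 to 2954 CPM on 2% iron. Those of the hepcidin control list were 1450 to 1564, 1603 to 1810 and 2366 to 2722 CPM in that order. In both lists every chow mouse lay below every 50 ppm mouse. The chow and 50 ppm sums of the other lists named overlapped. Hamp was -0.94 (adjusted p 0.272), Bmp6 -0.21 (adjusted p 0.855) and Isg15 -0.56 (adjusted p 0.595) on the log2 scale of chow minus 50 ppm, none of which passed. Of the 22 matrix and stellate cell genes 2, Mmp14 and Col5a1, were called lower on chow than on 50 ppm and 0 higher, with 11 at an unadjusted p under 0.05, all lower, and DESeq2 called 4 lower. The call of Col5a1 was kept in 7 of 15 alternatives, with adjusted p-values of up to 0.411, and was lost without any 1 of the chow mice or 50 ppm mouse 2 or 3. Of the 15 phagocyte activation genes 0 were called by edgeR, with 7 at an unadjusted p under 0.05, all lower on chow, and DESeq2 called 2. Of the 25 xenobiotic genes 7 were higher on chow and of the 24 NRF2 targets 6, with 0 lower in either list. Cyp2c29, a drug-metabolizing cytochrome, had 1479, 2005 and 1323 CPM on chow, 685, 511 and 565 CPM on 50 ppm and 649, 597 and 631 CPM on 2% iron. The chow mice stood above both other groups, by 1.45 over 50 ppm (SE 0.18, adjusted p 0.00397, and 0.0536 without 50 ppm mouse 3). Gsta2 had 21.5, 36.9 and 16.6 CPM on chow and 3.20, 2.32 and 2.73 CPM on 50 ppm (log2 difference 3.18, adjusted p 0.0144). Ces2a had 248, 166 and 147 CPM on 50 ppm, between the chow and the 2% mice. Aox1, aldehyde oxidase, had 139, 146 and 144 CPM on chow, 83.8, 72.9 and 75.2 CPM on 50 ppm and 84.6, 82.6 and 75.6 CPM on 2% iron. Its fall of 0.82 against chow lay beside a difference of 0.89 between chow and 50 ppm (adjusted p 0.00924).

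Other genes were lower on chow than on 50 ppm. Lepr, the leptin receptor, had 3.95, 3.54 and 5.31 CPM on chow, 24.8, 69.8 and 58.3 CPM on 50 ppm and 59.3, 58.9 and 37.2 CPM on 2% iron. The chow mice were low and the other 2 groups overlapped. Its rise on 2% iron against chow was 3.58 (SE 0.58, adjusted p 8.63e-04), and chow minus 50 ppm was -3.56 (adjusted p 0.0213). Apoa4 was -3.23 (SE 0.31, adjusted p 9.83e-04) on chow minus 50 ppm, a call kept in all 15 alternatives. Mmp14 was -1.01 (adjusted p 0.00924). In 15 alternatives the calls between chow and 50 ppm were kept in 12 for Gsta2, 10 for Aox1 and Mmp14, and 9 for Lepr, with adjusted p-values of up to 0.106, 0.0929, 0.0801 and 0.144 in that order. Without 50 ppm mouse 2 or 3 or chow mouse 2, each of these 4 calls was lost. Cyp2b10, the best known target of CAR, had 29.5, 104 and 12.7 CPM on chow, 0.582, 1.35 and 0.0829 CPM on 50 ppm and 37, 28.7 and 31.7 CPM on 2% iron. It did not pass in 2% iron against chow (log2 change -0.57, adjusted p 0.631), where its sign turned under TPM scaling and without chow mouse 2, the highest of the chow mice. Its difference between chow and 50 ppm was 6.21 (adjusted p 0.0383), a call kept in 6 of 14 alternatives and lost without any 1 of those 6 mice other than chow mouse 3, at up to 0.206.

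**Figure D5:**
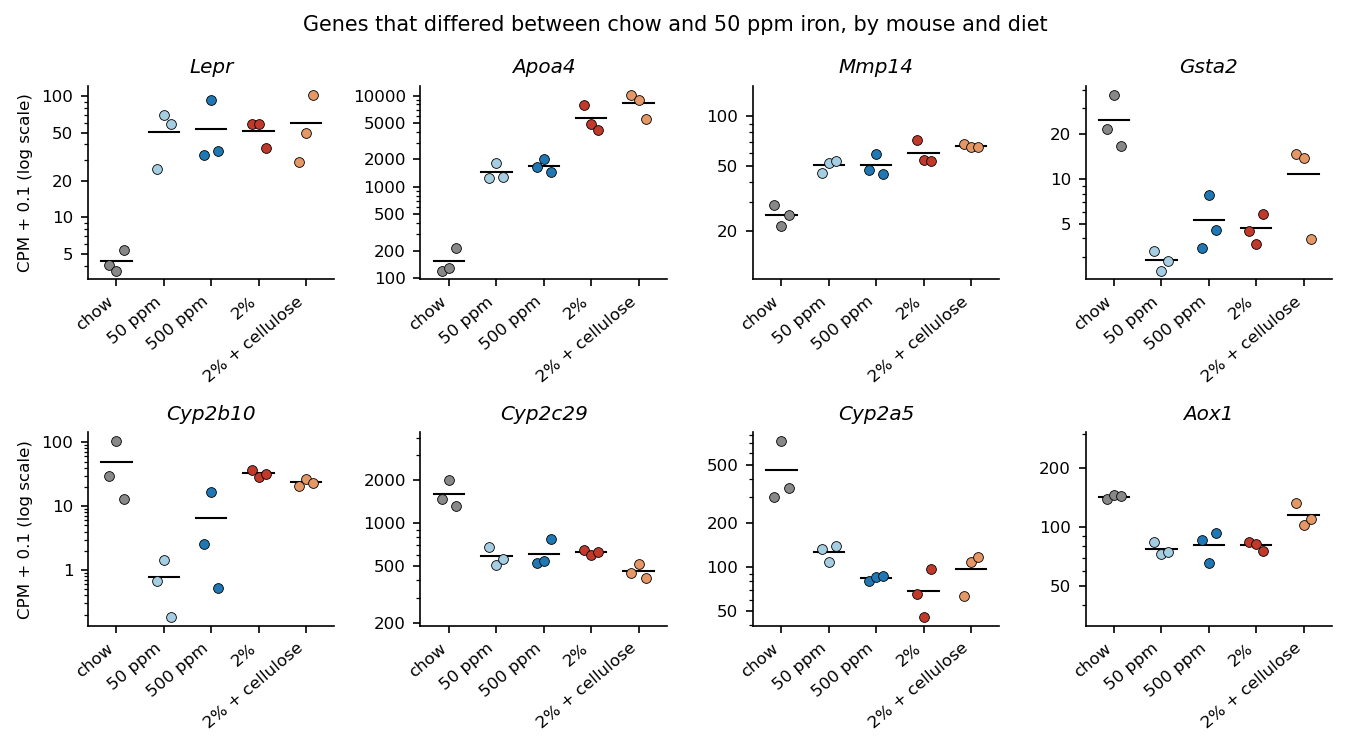
CPM + 0.1 on a log axis (y) for single mice (points) and group means (bars) of 8 genes that differed between chow and 50 ppm iron, in the 5 diet groups (x). Lepr, Apoa4 and Mmp14 are lower and the other 5 higher in all 3 chow mice than in all 3 mice on 50 ppm.

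The second diet with 2% iron, with cellulose as fibre, was set beside the first against the same chow mice, so the 2 comparisons are not independent. There 4748 genes were called, or 35.0%. Hamp changed by 2.34 on the first diet and 2.36 on the second, Bmp6 by 2.52 and 2.43, Isg15 by 2.22 and 1.75, and Clec4f by 1.73 and 1.74. Median log2 changes were 1.76 and 1.52 for BMP/SMAD targets, 2.12 and 1.63 for interferon-stimulated genes, and 1.70 and 1.76 for Kupffer cell markers. They were -2.56 and -4.51 for male-biased genes and -5.44 and -8.43 for major urinary proteins. A further 5 lists, chosen after their values were seen, had counts or medians that were not alike on the 2 diets. NRF2 targets had 3 called higher and 6 lower on the first diet, with a median of -0.26, and 7 higher and 3 lower on the second, with a median of 0.09. Nqo1, which did not pass on the first diet, was 1.50 on the second (adjusted p 0.00114). Of 7 monocyte and neutrophil markers 0 were called by edgeR on the first diet, with 4 at an unadjusted p under 0.05 and 2 called by DESeq2, and 6 higher on the second. Of 14 integrated stress response genes 2 were called higher on the first and 7 on the second, and of 15 proliferation genes 3 and 7. Fatty acid synthesis genes had medians of 0.99 and 0.34. When the 2 diets were compared directly, edgeR called 0 of the 75 genes of these 5 lists, with 23 at an unadjusted p under 0.05, and DESeq2 called 5, Abcc3, Aox1, Asns, Gdf15 and Psat1. Whether the lists as a whole differed between the diets was not tested. Tested directly against each other, the 2 diets with 2% iron differed in 11 genes, or 0.0811%, with 1 higher and 10 lower on cellulose and 1757 at an unadjusted p under 0.05. The lower ones included Mup19 at -3.69 (adjusted p 0.00708), Slco1a1 at -2.20 (0.00979), Hsd3b5 at -5.53 (0.014) and Cyp4a12a at -3.08 (0.023), all on the male-biased or Mup lists and lower on 2% iron than on chow. The gene higher on cellulose was Ddah1, which degrades methylated arginines, with 117, 133 and 121 CPM on chow, 19.6, 35.9 and 27.6 CPM on 2% iron and 70.6, 102 and 76.9 CPM with cellulose (log2 difference 1.59, adjusted p 0.00708). The count of 11 was 6 without 2% mouse 2 and 4 without cellulose mouse 1. It was 212 without cellulose mouse 3. Without cellulose mouse 2 edgeR called 0 genes, with 1227 at an unadjusted p under 0.05, while DESeq2 on all mice called 219. Fibre and any difference in how these 3 mice were kept, collected or sequenced cannot be told apart from the labels.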

How the data were processed

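Libraries were made with a stranded mRNA kit from total RNA of the large liver lobe, per the labels' protocols, with RINe values above 8. Per the submitters' processing notes, the authors used kallisto 0.46 and the build mm10, while the annotation release and the strand setting are not given in the sources used here. The deposited diet table holds expected counts for 35274 genes, of which 26.4% of values were not whole, and these were rounded to whole numbers before the count tests. A second table deposited by the authors gives TPM, used here in alternatives. Of the identifiers, 34924 matched GENCODE M21 of GRCm38, from which symbols and coordinates were taken. The design assumed counts, and the test was kept after rounding.

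All 15 diet mice were fitted together without covariates with glmQLFit and glmQLFTest of edgeR 4.0.16 in R 4.3.3, with TMM factors and filterByExpr. Unless another tool is named, an adjusted p is that of this two-sided test after Benjamini-Hochberg correction. CPM use TMM-scaled library sizes, and standard errors are the log2 change divided by the square root of F. Permutation of single values was not used, since with 3 mice against 3 the exact two-sided p cannot fall below 0.1.

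The genes and the 47 lists, with 626 genes tested, were chosen with earlier results of these data known. Any list gene may be named. Beyond the lists the rule names, in each direction, the 15 called genes with the largest change and the 10 with the smallest p, if a group averaged 1 CPM or more and the 2 groups did not overlap, leaving out predicted genes and pseudogenes. Promoters are from RefSeq. Counting of reads shared by gene copies is not stated, and 197 tested identifiers had counts identical to another. The statistic code was tested on simulated data. Results were recomputed with DESeq2 1.42.0, with RLE factors, without a filter, with a floor of 10 counts in every library, and with limma 3.58.1 on log2(TPM + 1) and log2(TPM + 0.1). They were also recomputed in the compared groups alone, without the cellulose group and with each mouse of the 2 compared groups left out in turn. Identical counts kept once, and a fit without the second 500 ppm library, which stands apart from its group, were added after seeing the data. Tables and plots were made in Python 3.11.15 (pandas 2.3.3, scipy 1.17.1, numpy 2.4.6, matplotlib 3.10.9). The strain panel was not analysed here.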

Additional observations from a re-analysis of the deposited data

How the results depend on the processing

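For 2% iron against chow the count of 3087 genes was 1945 with limma on log2(TPM + 1) and 1987 on log2(TPM + 0.1). It ran from 2151 to 2627 with each mouse of the 2 compared groups left out in turn. Leave-one-out values below likewise cover only mice of the compared groups. The count was 3320 without the second 500 ppm library. For 2% iron with cellulose against chow the leave-one-out counts ran from 3784 to 4423, and the count was 4923 without the second 500 ppm library. For chow against 50 ppm the 53 genes became 144 with DESeq2, 21 and 14 with limma on the 2 TPM scales and 26 in the compared groups alone. They became 63 without the second 500 ppm library, and 4 to 62 with a mouse left out. For the 2 diets with 2% iron the 11 genes became 51 without a filter, 26 at 10 counts in every library, 219 with DESeq2, 18 on either TPM scale, 23 in the compared groups alone, 53 without the second 500 ppm library, and 0 to 212 with a mouse left out.
Of 167 named genes tested, 150 were called for 2% iron against chow, and 141 of these were called under every alternative in which they were tested. Some did not pass the filter of every alternative, such as Epo, tested in 13, while Hamp was tested in all 16. Log2 changes turned sign, in each case without a call in the count test, for Tfrc (0.11 and 0.12 on the 2 TPM scales), Hif1a (0.03 and 0.04), Cyp2b10 (0.16 and 0.18) and Trem2 (0.79 and 1.37). With a mouse left out they ran from -0.14 to 0.04 for Hif1a, -0.18 to 0.05 for Trem2, -1.04 to 0.63 for Cyp2b10, -1.0 to 0.07 for Gdf15 and -0.11 to 0.77 for Cxcl10. The cause of these movements was not tested, apart from the smaller number of mice or genes in the settings that remove them.
No paired analysis was possible because the replicate numbers only name the mice in the order of their records. With expected counts from 3 mice a group, genes of a few counts, such as Epo and Slc4a1, have wide errors.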

Other observations

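Genes outside the lists stood out by the naming rule. Ffar4, a receptor for long-chain fatty acids, had 0 counts in the chow mice and 9.20, 2.40 and 3.58 CPM on 2% iron, at least 60.1-fold higher against 3 counts over the chow group. Slc22a27, an organic anion transporter, rose from 0.282, 0.559 and 0.727 to 28.3, 23.1 and 26.8 CPM. Summed counts of its relative Slc22a29 differed by a ratio of 59.8 (exact 95% counting interval 20.1 to 293), and reads can be shared between the pair. This interval too leaves out the spread between mice. Tent5a, a poly(A) polymerase, had 14.3, 13.7 and 16.8 CPM on chow and 39.2, 45 and 48.6 CPM on 2% iron (log2 change 1.56, SE 0.12, adjusted p 8.80e-06). Sod3, the extracellular superoxide dismutase, rose by 1.49 (SE 0.15, adjusted p 6.67e-05), against the fall of Sod2. The imprinted gene Mest rose by 2.36 (SE 0.22, adjusted p 3.36e-05). Among falls, Hectd2 fell by 2.90 (SE 0.25, adjusted p 2.14e-05) from 65.5 ± 3.37 CPM on chow (SD, n = 3), Lad1 fell by 3.16 (SE 0.28) and Abat, which breaks down GABA, by 1.41 (SE 0.11).

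In the count test the lysosome list moved in both directions, with 7 of 24 genes called higher and 3 lower. These were 5 and 1 without chow mouse 1, 4 and 2 without 2% mouse 1, and 8 and 0 under TPM scaling. Ctss, a cathepsin of phagocytes, had 16.4, 21.2 and 23.5 CPM on chow and 73, 55.2 and 55.3 CPM on 2% iron (log2 change 1.58, SE 0.23, adjusted p 4.52e-04), and Ctsd rose by 0.72 (SE 0.14, adjusted p 0.00327). Of 15 glucose metabolism genes 4 were called higher and 0 lower. Pklr, liver pyruvate kinase, had 191, 257 and 256 CPM on chow and 559, 608 and 655 CPM on 2% iron (log2 change 1.37, SE 0.21, adjusted p 5.14e-04), and averaged 461 ± 146 CPM (SD, n = 3) on 50 ppm. Igfbp1, a binding protein induced by fasting and hypoxia, rose by 2.04 (SE 0.44, adjusted p 0.00488). Otc, of the urea cycle, fell by 0.87 (SE 0.13, adjusted p 3.99e-04). The summed level of the 8 urea cycle genes was 9332 to 17297 CPM on chow and 8761 to 9482 CPM on 2% iron. On 50 ppm it was 7449 to 10629 CPM, a range that held the 2% mice. Between chow and 50 ppm edgeR called 0 of the 8, with 4 at an unadjusted p under 0.05.

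Trem2, a receptor of lipid-handling macrophages, differed between the 2 deposited scales, with no call in counts and a rise called on TPM. In counts it had 2.73, 3.36 and 3.78 CPM on chow and 2.90, 3.56 and 2.99 CPM on 2% iron (log2 change -0.07, adjusted p 0.908). In TPM its mean was 0.662 on chow and 1.87 on 2% iron, and limma called it at 0.79 on log2(TPM + 1) (adjusted p 0.00461) and at 1.37 on log2(TPM + 0.1) (adjusted p 0.0103). TPM divides by transcript length, so a change in which transcripts were counted would move it alone, and the cause was not tested.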
